A study of Mus musculus with 3 samples.

Results

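The BCL2 family of apoptosis regulators was examined in ES cells, B cells and T cells of C57BL/6 mice, with 1 microarray for each population. The 10 genes asked for were Bcl2, Bcl2l1, Bcl2l11, Mcl1, Bax, Bak1, Bid, Bad, Pmaip1 and Bbc3, and a gene was taken through every probe set whose annotation lists that symbol and no other. Probe sets were found for 9 of the 10 genes, 29 of 45037 probe sets in all, standing for 9 of 18193 genes. Bax was not analysed here. The rule names genes by symbol and uses no signal, but the family was chosen with earlier results of these arrays known.

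The embryonic stem (ES) cell line was B6N-22, grown with leukemia inhibitory factor and serum on fibroblasts that had been stopped from dividing with mitomycin C. The B cells were B220 cells and the T cells CD4 cells, both from the spleens of mice aged 6 to 8 weeks and purified with magnetic beads to above 98%. All 3 were lysed with no further treatment. Whether the feeder fibroblasts were removed, and how many mice gave the lymphocytes, was not given in the sources used.

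Proteins of the BCL2 family decide whether the outer mitochondrial membrane is opened, a step that releases cytochrome c and starts the caspase cascade. The prosurvival members BCL2, BCL-XL (from Bcl2l1) and MCL1 hold the membrane closed, and the effectors BAX and BAK (from Bak1) form the pores. The BH3-only members carry stress signals: BIM (from Bcl2l11), BID, PUMA (from Bbc3), NOXA (from Pmaip1) and BAD bind the prosurvival proteins, and some also activate the effectors. Resting lymphocytes are known to depend on BCL2 and MCL1, and BIM is the member best known for removing them.

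Signals are on the linear scale of the deposited table, and differences are log2 differences between arrays for the same probe set, since signals of different probe sets cannot be set against each other. Values below the detection level, a signal of 95, were raised to it first, so a fold against such an array is written as at least. Each gene is summarised by its brightest probe set (highest mean signal), with every other probe set given beside it. The 3 comparisons are called T-ES (T cells relative to ES cells), B-ES (B cells relative to ES cells) and T-B (T cells relative to B cells). With 1 array per population no test was possible, no value has a replicate error, and a share of cells that express a gene cannot be told apart from the RNA level per cell. The only spread available was between probe sets of a gene. Over 3927 genes, the differences given by the 2 brightest probe sets of a gene disagreed by a median of 0.46 on the log2 scale for T-ES, with a 90th percentile of 1.47. The median was 0.41 and the 90th percentile 1.42 for B-ES over 3887 genes, and 0.28 and 0.77 for T-B over 4555 genes.

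The markers of each labelled population were highest in its own array. All 5 ES cell markers passed the detection level in the ES cell array and none of the 5 in either lymphocyte array, and the 4 B cell and 4 T cell markers with a probe set were above it in their own array. In the T cell array 3 of 4 B cell markers also passed the level, and in the B cell array 2 of 4 T cell markers. Markers of other cell types were present as well. The summed signal of 10 macrophage markers was 4267 in ES cells against 27403 in B cells and 66159 in T cells, and 8, 10 and 10 of them were above the detection level. The summed signal of 10 fibroblast markers was 66827 in ES cells, where all 10 were above the level, against 697 in B cells and 7659 in T cells, of which Thy1, also a T cell gene, gave 7185. No marker of either list was at 0 in any array. The part of these cells in the differences below was not tested.

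Bcl2, the founding prosurvival gene, was the member with the greatest difference between ES cells and lymphocytes. Its brightest probe set had a signal of 115.6 in ES cells against 2876.1 in B cells and 2912.9 in T cells. Both lymphocyte signals lay close to each other and the ES cell signal lay just above the detection level. The difference was 25.2-fold (4.66 on the log2 scale) for T-ES and 24.9-fold (4.64) for B-ES, while T cells and B cells differed by 0.02. The 2 comparisons with ES cells share that array.

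All 5 Bcl2 probe sets gave the same direction. The remaining 4 were below the detection level in ES cells, with signals from 28.6 to 76.2, and all 4 were above it in both lymphocyte arrays. The second brightest had signals of 28.6, 2001.9 and 2154.3 in ES, B and T cells, a T-ES difference of at least 22.7-fold and a B-ES difference of at least 21.1-fold. The smallest difference came from the probe set that was dimmest in lymphocytes, with signals of 76.2, 545.5 and 531.0, at least 5.59-fold in T cells and at least 5.74-fold in B cells. Between T cells and B cells the 5 probe sets lay between -0.19 and 0.27 on the log2 scale, 3 higher and 2 lower. Bcl2 therefore ranked 231st from the top of 12325 measured genes in T-ES and 250th of 12463 in B-ES. When the detection level was raised to the 65th percentile, a signal of 244.5, the ES cell signal lay below it. The differences were then at least 3.57 and 3.56.

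**Figure D1:**
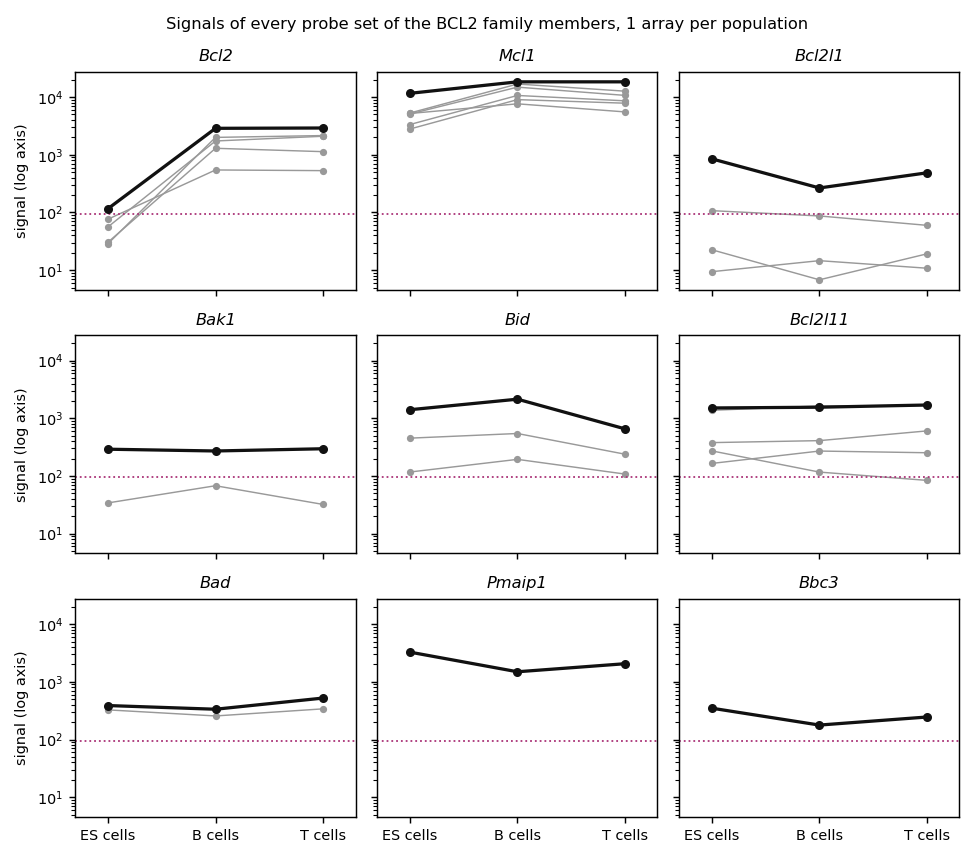
Signal of every probe set of the 9 measured members in ES cells, B cells and T cells (vertical log axis), with the brightest probe set of each gene in black, the others in grey and the detection level of 95 as a dotted line. All 5 Bcl2 lines climb from ES cells to both lymphocyte populations, all 6 Mcl1 lines stay far above the detection level, and the 3 Bid lines peak in B cells.

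Mcl1, whose protein is short-lived and is needed by lymphocytes and the early embryo, was well above the detection level in all 3 arrays. Its brightest probe set had signals of 11623.8 in ES cells against 18395.0 in B cells and 18390.4 in T cells, a difference of 0.66 on the log2 scale in both comparisons with ES cells. In the deposited values the lymphocyte arrays were higher by all 6 Mcl1 probe sets. Over these the difference ran from 0.09 to 1.49 for T cells and from 0.56 to 1.70 for B cells. One probe set, for example, had signals of 3340.2, 10676.0 and 8612.8 in ES, B and T cells, while another had 5196.9, 7647.9 and 5534.8. The brightest probe set of Mcl1 was thus among the flatter ones, and the median over its probe sets was 1.17 for T cells and 1.61 for B cells, past 2-fold in both. Scaling to the 75th percentile lowered the brightest from 0.66 to 0.28 (T-ES) and 0.31 (B-ES). The fall in T-ES is larger than the smallest probe set value of 0.09, so the direction shared by all 6 in T-ES depends on the scaling. B cells were above T cells by all 6 probe sets, by 0.00 to 0.48 on the log2 scale, a range below the 90th percentile of probe set disagreement, and with quantile normalization the brightest probe set gave 0.13 the other way.

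Bcl2l1, which encodes the prosurvival protein BCL-XL, was lower in lymphocytes. The brightest probe set had signals of 851.2 in ES cells against 265.9 in B cells and 487.2 in T cells, so the 3 arrays were ordered ES cells, T cells, B cells. B cells were 3.20-fold below ES cells (-1.68 on the log2 scale), T cells 1.75-fold below ES cells (-0.80) and T cells 1.83-fold above B cells (0.87). The value for T-ES lay within the 90th percentile of probe set disagreement, and the other 2 lay beyond it. These differences rest on 1 probe set. Of the remaining 3, the brightest had signals of 107.5, 87.0 and 59.8 in ES, B and T cells, and the other 2 were below the detection level in every array. The median over the 4 probe sets was therefore -0.09 in both comparisons with ES cells.

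The 2 prosurvival genes Bcl2 and Bcl2l1 changed unequally. The log2 difference of Bcl2 exceeded that of Bcl2l1 by 5.46 in T-ES and by 6.32 in B-ES. This quantity, added after the data had been seen, does not depend on a scaling of whole arrays. It fell to bounds of 2.66 and 2.70 where the probe set with the smallest difference stood for each gene.

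For 8 of the 9 measured members RefSeq promoter windows were at hand, 14 in all, from which the 250 bases before the annotated start were taken (assembly GRCm38.p6). Windows are shown for Bcl2 and Mcl1, higher in both lymphocyte arrays by their brightest probe sets, and for Bid, which separated B cells from T cells. Capitals mark GGGCGG (the GC box) and CCGGAA (an ETS factor motif) on either strand. The windows are chr1:106714291-106714540 on the minus strand for Bcl2, chr3:95658471-95658720 on the plus strand for Mcl1 and chr6:120916825-120917074 on the minus strand for Bid.
Bcl2: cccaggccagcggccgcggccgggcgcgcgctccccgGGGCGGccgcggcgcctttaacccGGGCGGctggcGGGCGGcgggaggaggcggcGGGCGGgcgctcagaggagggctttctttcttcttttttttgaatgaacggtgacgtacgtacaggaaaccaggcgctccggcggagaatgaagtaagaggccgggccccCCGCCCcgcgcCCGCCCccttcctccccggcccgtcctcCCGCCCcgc
Mcl1: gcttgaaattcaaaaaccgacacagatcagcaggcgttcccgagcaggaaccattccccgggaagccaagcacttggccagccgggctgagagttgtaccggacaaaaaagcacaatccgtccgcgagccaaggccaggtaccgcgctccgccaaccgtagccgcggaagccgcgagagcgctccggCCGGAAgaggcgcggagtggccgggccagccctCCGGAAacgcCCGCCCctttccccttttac
Bid: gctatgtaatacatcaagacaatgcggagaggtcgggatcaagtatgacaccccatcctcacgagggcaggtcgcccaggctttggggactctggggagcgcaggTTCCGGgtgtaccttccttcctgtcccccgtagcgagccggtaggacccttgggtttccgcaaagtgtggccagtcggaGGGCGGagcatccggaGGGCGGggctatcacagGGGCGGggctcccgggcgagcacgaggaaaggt

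The Bcl2 window holds 7 GC boxes and 36 CG dinucleotides at 74.8% G+C. The Mcl1 window holds 1 GC box, 2 ETS motifs and 26 CG dinucleotides at 64.4% G+C, and the Bid window 3 GC boxes, 1 ETS motif and 18 CG dinucleotides at 63.6% G+C. Over all 32851 RefSeq windows of this length, the median was 52.4% G+C and 6 CG dinucleotides. A GC box was in 32.7% of all windows and in 9 of the 14 windows of members, and the ETS motif in 12.0% and in 4 of 14. The 14 windows come from 8 genes, and windows of the same gene can overlap, as for Bbc3, so they are not separate members. The members with a GC box were Bad, Bbc3, Bcl2, Bcl2l11, Bid and Mcl1. The CCAAT box (CCAAT, 33.8% of all windows) was in 4 member windows and the E box CACGTG (6.02%) in 1. The TATA box TATAAA (12.4%), the cAMP response element TGACGTCA (1.55%), the STAT motif TTCNNNGAA (7.02%) and an NF-kappaB motif (0.356%) were in 0 of 14. All motifs were searched on both strands with overlaps allowed. The 3 Bcl2l1 windows held none of the 8 motifs and had 0, 11 and 12 CG dinucleotides. These are matches of letters in a window, with no measure of binding.

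Bak1, the pore-forming effector that was measured, had nearly the same signal in the 3 arrays. Its brightest probe set gave 291.3 in ES cells against 271.4 in B cells and 296.7 in T cells, with differences of 0.03, -0.10 and 0.13 on the log2 scale for T-ES, B-ES and T-B. The second probe set was below the detection level in every array. The sign of the T-ES difference changed with scaling to the 75th percentile (-0.35) and with quantile normalization (-0.41).

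Bid, a BH3-only gene whose protein is cut by caspase-8 to link death receptors to mitochondria, was the member that most separated the 2 lymphocyte populations. Its brightest probe set had signals of 1408.0 in ES cells against 2145.9 in B cells and 655.1 in T cells. T cells were thus lowest and B cells highest. T cells were 3.28-fold below B cells (-1.71 on the log2 scale), and the other 2 probe sets, with signals of 452.8, 545.3 and 238.4 and of 117.1, 194.2 and 107.9 in ES, B and T cells, gave -1.19 and -0.85. All 3 values lay beyond the 90th percentile of probe set disagreement for this pair. Only 280 of 11194 measured genes had a difference at or below that of Bid. Against ES cells, T cells were lower by all 3 probe sets (-1.10, -0.93 and -0.12) and B cells higher by all 3 (0.61, 0.27 and 0.73) in the deposited values. Scaling to the 75th percentile lowered the brightest from 0.61 to 0.26 in B-ES. That fall is larger than the 0.27 of the second probe set, so the direction shared by all 3 in B-ES depends on the scaling. In the same 2 arrays the summed signal of the macrophage markers was 27403 in B cells and 66159 in T cells, and its part in the Bid difference was not tested.

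Bcl2l11 did not share one direction over its probe sets. The brightest had signals of 1511.3 in ES cells against 1557.3 in B cells and 1700.8 in T cells, and the next had 1375.4, 1639.4 and 1667.9, so both were nearly flat, and scaling to the 75th percentile turned the brightest to -0.21 (T-ES) and -0.31 (B-ES). Those with signals of 379.0, 410.2 and 605.1 and of 165.0, 270.7 and 252.9 in ES, B and T cells were somewhat higher in lymphocytes. The fifth went the other way, with 272.6 in ES cells against 116.9 in B cells and 83.9 in T cells, which is at least 2.87-fold lower in T cells and 2.33-fold lower in B cells. For T-ES the 5 values ran from -1.52 to 0.67, and for B cells from -1.22 to 0.71. Which transcripts of Bcl2l11 each probe set covers is not given in the files.

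The genes of NOXA and PUMA were both highest in ES cells, by 1 probe set each. Pmaip1 had signals of 3277.5 in ES cells against 1494.8 in B cells and 2061.8 in T cells. It was 2.19-fold lower in B cells (-1.13 on the log2 scale) and 1.59-fold lower in T cells (-0.67). Bbc3 had signals of 349.6, 178.0 and 245.7 in the same order, 1.96-fold lower in B cells (-0.97) and 1.42-fold lower in T cells (-0.51). Both genes had the order ES cells, T cells, B cells, as Bcl2l1 did. For neither did a difference exceed the 90th percentile of probe set disagreement, and with a single probe set there was no second measurement.

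Bad, whose protein is held inactive by phosphorylation under growth factor signalling, had signals of 388.2 in ES cells against 335.0 in B cells and 523.6 in T cells by its brightest probe set and of 326.6, 256.2 and 340.3 by its other. T cells were above B cells by 0.64 and 0.41 on the log2 scale and above ES cells by 0.43 and 0.06. B cells were below ES cells by both, with differences of -0.21 and -0.35. All 6 values lay within the 90th percentile of probe set disagreement.

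**Figure D2:**
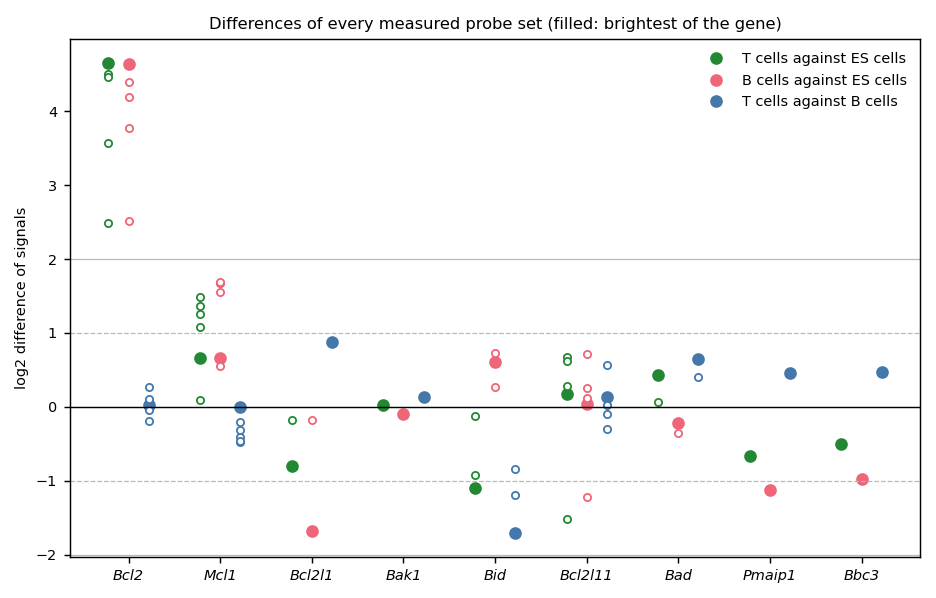
Log2 difference of signals for each member in the 3 comparisons, with a filled point for the brightest probe set of a gene and open points for its other measured probe sets. Dashed lines mark 2-fold and solid grey lines 4-fold, and only the Bcl2 points pass 4-fold, by every probe set and in both comparisons with ES cells.

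Counted over the 9 measured members, few differences were large. For T-ES, 1 member (Bcl2) was at least 4-fold higher and 0 were at least 4-fold lower, where 10.8% of 12325 measured genes were higher and 10.2% lower. At 2-fold, 1 member was higher (Bcl2) and 1 lower (Bid), where 22.7% of genes were higher and 24.7% lower. For B-ES, 1 member (Bcl2) was at least 4-fold higher and 0 lower, beside 9.85% and 10.3% of 12463 genes. At 2-fold, Bcl2 was higher and Bcl2l1 and Pmaip1 were lower, beside 21.1% and 24.6%. For T-B, 0 members reached 4-fold, beside 2.49% of 11194 genes higher and 1.85% lower. At 2-fold 1 was lower (Bid) and 0 higher, beside 6.32% lower and 8.89% higher. With 9 members, counts of 0 to 2 lie near these shares, and they single out genes, not the family.

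The median difference of the members was 0.03 for T-ES, -0.10 for B-ES and 0.13 for T-B, where all measured genes had medians of -0.11, -0.07 and -0.05. Scaling the arrays to a common 75th percentile moved the median of all genes to -0.42 and -0.37 in the comparisons with ES cells. It also moved the share of genes counted at 4-fold that were higher from 51.5% to 38.6% in T cells and from 48.8% to 37.4% in B cells. Under that scaling Bcl2l1 reached 4-fold in the B-ES comparison at -2.03, as a second member beside Bcl2.

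**Figure D3:**
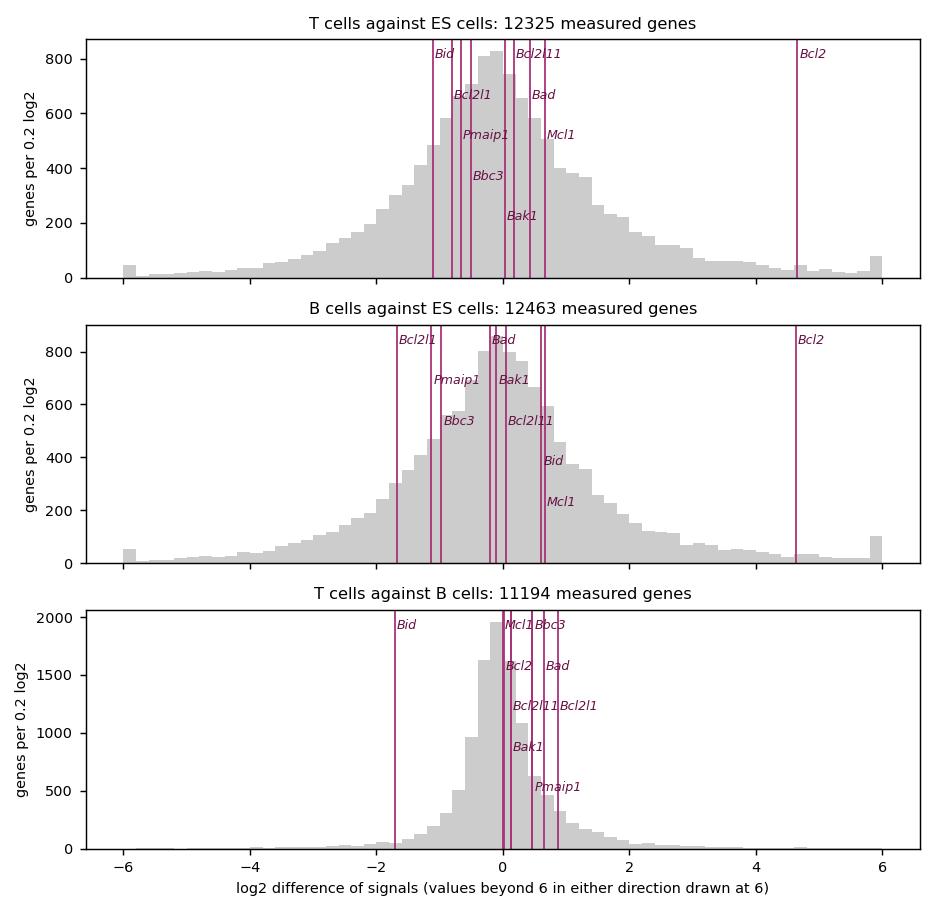
Distribution of log2 differences over all measured genes (grey bars, genes per 0.2 on the log2 scale) in the 3 comparisons, with a line at the brightest probe set of each member. Bcl2 lies far in the right tail against ES cells in both upper panels and at the centre for T-B, where Bid is the member farthest from it at -1.71.

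Because Bcl2 was the member that reached 4-fold, the genes with the nearest pattern over the 3 arrays were looked up among 12173 genes. The 3 nearest were Il17ra, an interleukin-17 receptor chain, Cyth1, a guanine nucleotide exchange factor of ARF proteins, and Ly9, a leukocyte surface receptor. Il17ra had signals of 158.2, 4013.6 and 4067.7 in ES, B and T cells and Cyth1 had 139.9, 3619.6 and 3597.8, at distances of 0.02 and 0.04 on the log2 scale after centring each gene. Ly9 had 9.0, 2480.1 and 2370.5, so its place rests on raising the ES cell signal to the detection level, and its distance is not given. In all, 64 genes lay within 0.5 of Bcl2, of which 34 were above the detection level on all 3 arrays.

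Around the 9 members, further genes of the apoptosis pathways were followed in 6 lists, each read beside the shares of all genes given above. Of 16 other BCL2 family genes 11 had a probe set, and the Bcl2a1 genes, whose copies share probe sets, were not analysed here. In both lymphocyte arrays 2 were at least 4-fold lower than in ES cells and 0 higher, of 9 measured with T cells and 8 with B cells. Bnip3, a hypoxia-induced mitophagy gene, had signals of 5213.0, 511.4 and 349.5 in ES, B and T cells, 14.9-fold lower in T cells and 10.2-fold lower in B cells. Bok, a BAX-like gene, was at least 5.89-fold lower in both, with 559.3 in ES cells and 64.4 and 66.3 in B and T cells, and was not counted at a detection level at the 65th percentile or without _a_at probe sets. Between T cells and B cells 0 of 8 reached 4-fold. With 16 added in place of a floor 1 did, Bik, which was higher in T cells and also counted in T-ES. Bik had signals of 18.8, 11.4 and 127.1 in ES, B and T cells, so only its T cell signal passed the detection level. The 2 beyond 2-fold with the floor, named like Bik after their values were seen, were both lower in T cells. Bmf, a BH3-only gene, had signals of 749.8 in B cells and 314.1 in T cells (-1.26 on the log2 scale), and Bcl2l2, the prosurvival gene of BCL-W, had 454.7 and 202.7 (-1.17).

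The genes of the mitochondrial step and the apoptosome had counts near those of all genes. Of 11 measured, 1 was at least 4-fold lower and 0 higher in each comparison with ES cells, with medians of -0.59 for T cells and -0.93 for B cells. That gene was Vdac1, a channel of the outer mitochondrial membrane, with signals of 19602.3, 2663.2 and 2856.2 in ES, B and T cells. At 2-fold, 4 of the 11 were lower and 1 higher in T cells, and 3 lower and 1 higher in B cells, where 24.7% and 24.6% of all genes were lower. Other probe sets of Diablo and Mtch2 reached 0.45 and 0.95 in T-ES although the brightest gave -0.30 and -1.54. Between T cells and B cells all 11 lay within 2-fold.

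Among caspase genes, 3 of 6 measured reached 4-fold upward and 0 downward in both the T-ES and the B-ES comparison, with medians of 2.32 and 2.45, where 2 of the 6 values are bounds. Casp8, the initiator caspase of death receptors, which cuts BID, had signals of 442.1, 4613.0 and 5457.5 in ES, B and T cells. It was 12.3-fold higher in T cells and 10.4-fold higher in B cells. The inflammatory caspase genes Casp1 and Casp4 had T-ES differences of at least 15.2-fold and 8.37-fold and B-ES differences of at least 23.5-fold and 10.8-fold, all upward. With a 65th percentile detection level the bound of Casp4 in T-ES was 3.25-fold, so Casp4 was not counted there. Both are also known from macrophages, whose markers were higher in the lymphocyte arrays, and that part was not tested. No caspase gene of the 6 passed 2-fold between T cells and B cells.

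Among 8 measured genes of inhibitor of apoptosis proteins, 3 were higher than in ES cells by at least 4-fold in T cells as well as B cells and 1 was lower, with medians of 1.45 and 1.47, where 3 of the 8 values are bounds. Birc3, an NF-kappaB target gene, had signals of 250.7, 11954.3 and 4607.9 in ES, B and T cells, 18.4-fold higher in T cells and 47.7-fold higher in B cells. Its other probe set gave 1.72 and 4.10 on the log2 scale. Naip5 and Naip2, sensors of bacterial proteins, had T-ES differences of at least 6.23-fold and 5.26-fold and B-ES differences of at least 7.70-fold and 4.05-fold, all upward. Neither was counted in T-ES or B-ES with a 65th percentile detection level, which left 2 genes of the list in each. The bound of Naip2 in B-ES was 3.75-fold with quantile normalization and 3.70-fold with 75th percentile scaling. The gene that was lower was Birc5, which encodes the mitotic protein survivin, with 4934.1 in ES cells against 644.0 in B cells and 718.5 in T cells. Between T cells and B cells 0 of 8 reached 4-fold. Where probe sets with _s_at, _x_at and _a_at endings were left out, 0 of these genes were counted in the T-ES comparison, 1 in the B-ES comparison and 1, lower in T cells, in the T-B comparison.

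Of 10 measured death receptor pathway genes, 4 reached 4-fold upward in the T-ES comparison and 2 in the B-ES comparison, and 0 downward in either, with medians of 1.77 and 0.56, where 4 of the 10 values are bounds in each. Cflar, the inhibitor of caspase-8 at the receptor, had signals of 348.9, 1848.9 and 2555.8 in ES, B and T cells, 7.33-fold higher in T cells and 5.30-fold in B cells, although the smallest difference over its probe sets was 1.41 on the log2 scale in T cells and 0.84 in B cells. In T cells the others were Fas, at least 9.23-fold, and the ligand genes Fasl, at least 7.86-fold, and Tnfsf10 (TRAIL), at least 7.74-fold higher. In B cells the second was the adaptor gene Traf2, at 4.08-fold, which was 3.30-fold with quantile normalization, 3.20-fold with 75th percentile scaling and 3.93-fold with 16 added in place of a floor. The 2 ligand genes also separated the lymphocytes. Fasl had signals of 95.8 in B cells and 746.3 in T cells, a 7.79-fold difference, and Tnfsf10 127.7 and 735.7, a 5.76-fold difference, 2 of 9 measured genes at 4-fold. The summed signal of 6 markers of NK and cytotoxic cells was 4176 for the T cell array against 2646 for B cells and 146 for ES cells. Of these markers 5, 6 and 0 were above the detection level. They did not share one direction in T-B, and their median difference was 0.29 on the log2 scale. From B cells to T cells, signals rose for Klrd1 (590.2 to 2355), Prf1 (249.2 to 498.4) and Cd8b1 (165.5 to 715.6). Signals fell for Ncr1 (168.3 to 51.9), Gzma (1279.4 to 409.8) and Cd8a (193.2 to 145.4). The part of NK and cytotoxic cells in the differences of the death receptor genes was not tested. When the detection level was raised to the 65th percentile, 1 gene was counted in the T-ES comparison and 0 in the T-B comparison, and by the smallest difference over its probe sets Fasl was at 3.95-fold in T-B.

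The 14 measured upstream regulators went in both directions, with medians of 0.02 for T cells and 0.05 for B-ES. In T cells 1 was at least 4-fold higher and 1 lower, and in B cells 2 higher and 1 lower. Foxo1, a transcription factor known to act on the Bcl2l11 gene, had signals of 595.3, 3672.3 and 3665.1 in ES, B and T cells, 6.16-fold and 6.17-fold higher in T cells and B cells. E2f1, a cell cycle factor, was 5.70-fold lower in T cells by its brightest probe set. It was not counted under 4 of the 7 alternatives. With a 65th percentile detection level it was at least 2.93-fold lower, since the T cell signal was raised to that level. By the median, by the smallest difference and without _s_at, _x_at and _a_at probe sets it was at 3.27-fold. Ppp3ca, a calcineurin subunit whose phosphatase acts on BAD, was 7.08-fold higher in B cells, and Dynll2, the dynein light chain that holds BMF, was 5.35-fold lower there. In the T-B comparison 0 of the 14 reached 4-fold.

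**Figure D4:**
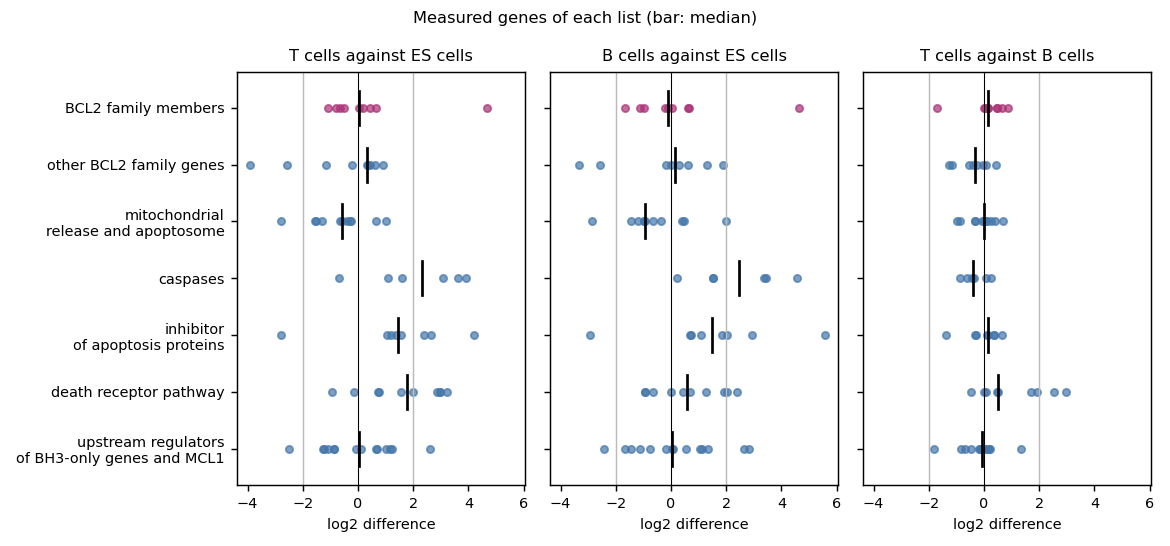
Log2 difference of each measured gene in the 9 BCL2 family members (purple) and the 6 lists (blue) for the 3 comparisons, with a black bar at the median of the list and grey lines at 4-fold. Caspases have medians of 2.32 and 2.45 against ES cells, while the BCL2 family members centre near 0 with Bcl2 alone far to the right.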

How the data were processed

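Messenger RNA was measured on 3' expression arrays, 1 per population, from total RNA extracted with Trizol and labelled with biotin, per the labels. The deposited values are linear intensity signals of probe sets, which the authors made with Affymetrix Expression Console per the submitters' processing notes. Neither its version nor its summarization or background method was stated there. The column means after 2% trimming were 497.3 to 497.8, as arrays scaled to a common mean have, so a general change in mRNA per cell cannot be seen.

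Gene names came from GEO's array annotation, checked by Entrez ID against a RefSeq gene table (GRCm38.p6), which changed 0 symbols. Of the 45037 probe sets, 34945 had 1 symbol, 932 several and 9160 none listed. As detection level served the 50th percentile over all 3 columns. A gene was measured in a comparison where its brightest probe set was above that level on at least 1 of the 2 arrays, and was counted where it also differed by 4-fold or 2-fold. The number of arrays limits the precision, and no test was run. The calculation was checked on simulated arrays, with Python 3.11.15, numpy 2.4.6 and pandas 2.3.3.

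The members and lists were chosen with earlier results of these data known. All 10 members are named with every probe set. Of each list, up to 4 genes per comparison and direction at 4-fold are named, and the 3 genes nearest to each member at 4-fold. The alternatives tried were a common 75th percentile, quantile normalization, the 65th percentile as detection level, 16 added in place of a floor, and 3 other rules for the probe set of a gene: the median over all, the smallest difference, and no probe sets with _s_at, _x_at or _a_at endings. Protein sequences were not used here.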

Additional observations from a re-analysis of the deposited data

Results flagged for a closer look

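Bid was the member whose 2 comparisons with ES cells went in opposite directions, each by more than the SD of probe set noise. On the log2 scale it was -1.10 in T-ES and 0.61 in B-ES. Both lie within the 90th percentile of probe set disagreement (1.47 and 1.42), and the smallest values over the alternatives, -0.12 and 0.26, lie within the SD too. Both comparisons share the ES cell array, there is 1 array per population, and the difference was not tested.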

How the results depend on the processing

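In all, 189 differences of members were recomputed. A change of sign was looked for only where the main difference was 2-fold or more, and none was found there. Most main differences were smaller, and some of those did change sign. In T-ES, Bak1 went from 0.03 to -0.41 with quantile normalization, and Bcl2l11 from 0.17 to -0.21 with 75th percentile scaling. In 170 of the 189 the value moved by less than the probe set noise (an SD of 0.48, 0.43 and 0.29 on the log2 scale for T-ES, B-ES and T-B) and in 19 by more. Bcl2 stayed past 4-fold in the T-ES and B-ES comparisons under all 7 alternatives, from 2.48 to 4.66 in T cells and from 2.52 to 4.64 in B cells. The lower ends are bounds, since the ES cell signal of that probe set was raised to the detection level. The 2 members at 2-fold in T-ES became 4 with quantile normalization, 4 with scaling to the 75th percentile, and 1 by the smallest difference over probe sets, when Bid gave -0.12. The 1 member at 4-fold in B-ES became 2 with scaling to the 75th percentile. The 1 member at 2-fold in T-B became 0 where every probe set had to differ. Other counts of members stayed within 1.5 times, but by the median over probe sets the members at 2-fold changed: Mcl1 (higher) took the place of Bid in T-ES and of Bcl2l1 in B-ES. Of 126 list counts, 106 stayed within 1.5 times too. Where every probe set had to differ, all-gene counts were also lower, since fewer genes can pass. Signals near the detection level, as that of Bcl2 in ES cells, limit how large a fold can be read. No paired analysis was possible because each population has 1 array and no test was run.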
